A study of Mus musculus with 18 samples.

Results

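The immediate early genes followed here are Fos, Fosb, Jun, Junb, Atf3, Egr1, Ier2, Ccn1, Ccn2 and Dusp1. These 10 genes were found by their annotated symbols and were read by 12 probes, with 3 probes for Ccn1 and 1 for each other gene, among 18312 genes on the array. The series holds 18 Illumina mouse bead arrays, 3 in each of 6 groups, and each array reads mRNA levels. In lung, IL-4 KO or wild-type (WT) males, all of C57BL/6 background and 8 to 12 weeks old, breathed 10% O2 (KO hypoxia and WT hypoxia) or room air (KO normoxia and WT normoxia) for 4 days, and each array held total lung RNA of 1 animal. In culture, cells labelled as pulmonary microvascular endothelial cells (PMVEC), isolated from wild-type C57BL/6 females of 4 to 6 weeks and used at passages 3 to 5, received recombinant IL-4 (rIL-4) at 50 ng/mL or vehicle for 24 h. The series states as its aim a profile of IL-4-dependent vascular inflammation of the lung under hypoxia. How the Il4 allele was made, whether the cells of several animals were pooled and whether the 3 cell samples of a condition were separate cultures are not stated in the labels, so p-values for the cells measure only the spread between these samples.

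Immediate early genes are transcribed within minutes of a growth factor, cytokine or mechanical stimulus, from factors already present in the cell such as SRF with its ternary complex partners and CREB, and their mRNAs are short-lived. Fos, Fosb, Jun and Junb encode subunits of the AP-1 transcription factor, Atf3 a stress-induced relative of them, and Egr1 a zinc finger factor with roles in vascular injury. Ccn1 (also called Cyr61) and Ccn2 (CTGF) encode secreted matrix-associated proteins that are targets of YAP and SRF, and Dusp1 a phosphatase that switches off p38 and JNK. IL-4, a cytokine of type 2 immunity, signals mainly through STAT6.

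Of the 10 genes, all were detected on all 12 lung arrays and tested there, among 12571 tested genes. In the cells 8 were tested among 9017 genes, because Fosb and Ier2 were detected on 0 of 6 arrays. The Il4 probe lay between 4.97 and 5.86 on the 6 KO arrays, against 7.25 to 8.26 on the 6 WT arrays (normalized log2 signal). It was detected on 10 of 12 lung arrays, all but KO normoxia 2 and KO hypoxia 2. The labels do not say whether its target is missing from the KO allele.

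The cells carried some of the markers of their label and lacked others. Of 11 endothelial markers on the array, Cdh5, Tek, Tie1, Vwf, Emcn and Esam were detected on 0 of 6 cell arrays and Pecam1 on 1 of 6, whereas Kdr was detected on 5 and Eng on 6. Kdr was dim, with a raw signal of 61.1 to 70.1 in the cells, and Eng had 415 to 533. In all, 4 of the 11 passed the filter, among them Plvap, a protein of endothelial fenestrae and caveolae, which rose with rIL-4 (0.88, adjusted p = 0.0044). Acta2, the smooth muscle actin also made by myofibroblasts, had a raw signal of 33000 to 41400 in the cells. Tagln, another smooth muscle marker, had 205 to 250, and Col1a1, a collagen chain, 1030 to 1890. Of 7 smooth muscle markers on the array 5 passed the filter, while Myh11 and Cnn1 were detected on 0 of 6 arrays. Of 10 fibroblast and mesenchymal markers 7 passed it, while Lum, Mfap4 and Tcf21 were detected on 0 of 6. The cells are called the cultured cells below. In lung, Cdh5, Tek, Tie1 and Vwf were detected on 12 of 12 arrays.

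Some lung arrays stood apart in markers of other tissues or cells. The mean standardized level of 9 neutrophil genes was 1.99, 0.96 and -0.54 on the WT normoxia arrays, and that of 13 liver genes was 2.23, 1.11 and 0.72 on the KO normoxia arrays. Cardiac and skeletal muscle genes stood at -2.51 on KO hypoxia 1. The share of probes detected (detection p under 0.05) was 60.2% to 64.2% for lung and 45.1% to 46.9% for cells.

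Because several of these genes moved together, the promoters of 5 are shown, 4 that fell under hypoxia in both genotypes (Fos, Fosb, Ccn1, Dusp1) and 1 that did not pass in any comparison (Junb). Each runs 5′ to 3′ on the strand of its gene, covers 250 bases before and 50 after the annotated start, and comes from RefSeq (GRCm38.p6). Capitals mark TGACG, the core of the cyclic AMP response element (CRE), on either strand (CGTCA when it lies on the other), and TATAAA, the TATA box.
Fos, chr12:85473640-85473939, plus strand: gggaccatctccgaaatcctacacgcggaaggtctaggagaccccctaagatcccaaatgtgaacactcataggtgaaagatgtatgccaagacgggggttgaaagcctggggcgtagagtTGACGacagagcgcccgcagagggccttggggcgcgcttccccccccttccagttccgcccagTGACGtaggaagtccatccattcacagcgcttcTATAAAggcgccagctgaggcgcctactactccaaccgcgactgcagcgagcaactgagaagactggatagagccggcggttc
Fosb, chr7:19309996-19310295, minus strand: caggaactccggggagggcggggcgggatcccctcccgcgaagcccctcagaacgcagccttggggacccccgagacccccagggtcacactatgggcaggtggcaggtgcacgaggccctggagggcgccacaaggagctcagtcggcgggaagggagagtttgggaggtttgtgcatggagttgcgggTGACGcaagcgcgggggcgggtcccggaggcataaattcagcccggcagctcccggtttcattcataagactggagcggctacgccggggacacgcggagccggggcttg
Junb, chr8:84978699-84978998, minus strand: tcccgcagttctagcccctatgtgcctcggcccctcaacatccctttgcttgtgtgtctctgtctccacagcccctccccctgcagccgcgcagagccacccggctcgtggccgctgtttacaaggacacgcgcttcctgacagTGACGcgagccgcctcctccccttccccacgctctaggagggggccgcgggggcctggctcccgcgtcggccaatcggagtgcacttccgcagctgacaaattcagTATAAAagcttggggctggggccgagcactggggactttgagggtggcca
Ccn1, chr3:145649936-145650235, minus strand: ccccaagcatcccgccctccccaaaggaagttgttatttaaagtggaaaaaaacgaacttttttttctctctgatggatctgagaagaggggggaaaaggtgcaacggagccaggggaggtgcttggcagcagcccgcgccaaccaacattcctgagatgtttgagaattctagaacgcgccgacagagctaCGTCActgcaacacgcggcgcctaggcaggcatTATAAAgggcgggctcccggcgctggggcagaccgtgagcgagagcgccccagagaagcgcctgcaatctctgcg
Dusp1, chr17:26508423-26508722, minus strand: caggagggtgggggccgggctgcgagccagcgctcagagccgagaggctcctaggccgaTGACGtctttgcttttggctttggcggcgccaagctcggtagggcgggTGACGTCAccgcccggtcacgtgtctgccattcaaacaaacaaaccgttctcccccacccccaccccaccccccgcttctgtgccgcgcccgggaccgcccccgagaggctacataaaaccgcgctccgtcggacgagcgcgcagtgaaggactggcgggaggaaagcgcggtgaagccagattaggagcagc

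The core TGACG occurred in 6 of the 7 members that were matched in the promoter table, Fos, Fosb, Junb, Atf3, Ccn1 and Dusp1 but not Jun, and in 20.9% of 32544 promoters of the same length; it was added after the sequences were seen. In Dusp1, 1 pair of cores on opposite strands overlaps and forms the full CRE, TGACGTCA, at -143 to -136 from the start, an element found in 1.8% of promoters. TATAAA stood in Fos at -33 to -28, in Ccn1 at -25 to -20 and in Junb at 1 to 6, against 13.6% of promoters. GGAATG, bound by the TEAD partners of YAP, was present in Ccn1 (14.6% of promoters), and ACGTG, the core of HIF sites, in Dusp1 on both strands, in matches that overlap each other (19.7% of promoters). The CArG box of SRF (1.64% of promoters), the AP-1 site TGANTCA (7.79%) and a STAT6 form, TTC and GAA set apart by 4 bases (6.98%), had no match in the 7 windows. Junb, which passed in no comparison, carried the core too. A match is a description of letters, and these windows leave out more distant elements.

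The first comparisons asked what 4 days of hypoxia did to these genes in lung with and without IL-4. In KO lung, 6 of 10 fell (Fos, Fosb, Atf3, Egr1, Ccn1 and Dusp1) and 0 rose, while 8.78% of all tested genes passed in either direction and 3.82% fell. In WT lung, 5 fell (Fos, Fosb, Jun, Ccn1 and Dusp1) and 0 rose, while 11.8% of all tested genes passed and 4.32% fell. A gene is said to have risen or fallen where its Benjamini-Hochberg adjusted p in limma, over all genes tested, was under 0.05. The median log2 change of the 10 genes was -0.98 in KO lung and -0.58 in WT lung, against 0.03 and 0 for all genes. All 3 hypoxia arrays lay below all 3 normoxia arrays for 8 of 10 genes in KO lung and for 6 of 10 in WT lung, which 12.1% and 13.3% of all tested genes did. As these are whole-lung samples, fewer cells of a type and less mRNA per cell cannot be told apart.

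**Figure D1:**
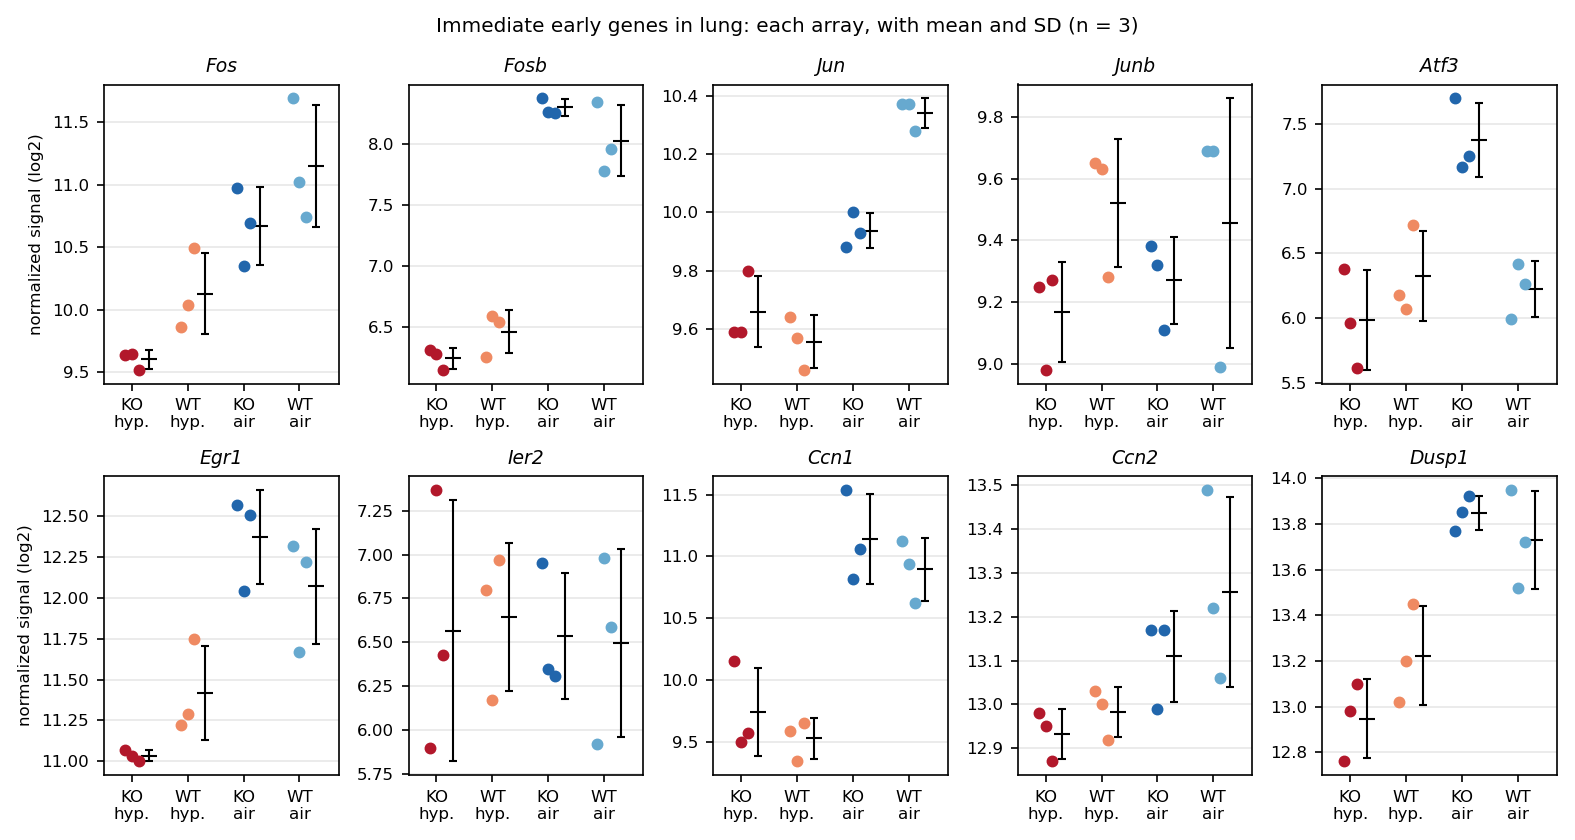
Normalized log2 signal of the brightest probe of each gene on the 12 lung arrays (points; hyp., hypoxia; air, normoxia), with the mean and SD of 3 arrays beside each group and a separate axis for each gene. In Fosb, Ccn1 and Dusp1 every hypoxia array lies below every normoxia array, and Atf3 stands highest in KO normoxia.

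Fosb, an AP-1 subunit, had the largest fall of the 10 genes in each genotype. Its normalized log2 signal was 6.31, 6.28 and 6.15 in KO hypoxia, against 8.38, 8.27 and 8.26 in KO normoxia. In WT lung it was 6.26, 6.59 and 6.54 under hypoxia, against 8.35, 7.78 and 7.96 in normoxia. The 6 hypoxia arrays and the 6 normoxia arrays did not overlap, and within each air the genotypes did. The fall was 4.16-fold in KO lung (log2 change -2.06, SE 0.15, adjusted p = 8.3e-06) and 2.97-fold in WT lung (-1.57, SE 0.15, adjusted p = 2.8e-05). It passed under all 18 alternatives in each genotype, with log2 changes between -2.09 and -1.45 in KO lung and between -1.70 and -1.12 in WT lung.

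Fos, the partner of Jun in the classic AP-1 dimer, was 9.64, 9.65 and 9.52 in KO hypoxia, against 10.97, 10.35 and 10.69 in KO normoxia. Under WT hypoxia it was 9.86, 10.04 and 10.49, against 11.69, 11.02 and 10.74 in WT normoxia. Hypoxia and normoxia did not overlap within either genotype, although WT hypoxia 3 exceeded KO normoxia 2. The log2 change was -1.06 (SE 0.24) in KO lung and -1.02 (SE 0.24) in WT lung, both with adjusted p = 0.015. In KO lung the call was lost without KO normoxia 1 (-0.91, adjusted p = 0.064) and without KO hypoxia 3 (-1.02, adjusted p = 0.052). In WT lung it was lost without WT normoxia 1 (-0.75, adjusted p = 0.053), WT hypoxia 1 (-0.89, adjusted p = 0.065) or WT hypoxia 2 (-0.98, adjusted p = 0.055). Without WT normoxia 1 and 2 together the WT change was -0.61 (adjusted p = 0.32), and without KO normoxia 1 and 2 together the KO change was -1.08 (adjusted p = 0.15).

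Jun, the other subunit of that dimer, fell in WT lung and did not pass in KO lung, and the difference did not pass either. It was 9.59, 9.59 and 9.80 in KO hypoxia, against 9.88, 10.00 and 9.93 in KO normoxia, a log2 change of -0.28 (SE 0.11, adjusted p = 0.14) without overlap. In WT lung it was 9.64, 9.57 and 9.46 under hypoxia, against 10.37, 10.37 and 10.28 in normoxia, and fell 1.72-fold (-0.78, SE 0.11, adjusted p = 0.00049), a call kept under all 18 alternatives. The WT normoxia arrays stood above all others, and the 2 hypoxia groups overlapped. The KO change minus the WT change was 0.50 (95% interval 0.18 to 0.83, adjusted p = 0.16).

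Junb, an AP-1 subunit that can oppose Jun, passed in neither genotype, with log2 changes of -0.11 (95% interval -0.52 to 0.30) in KO lung and 0.06 (-0.35 to 0.47) in WT lung. Its arrays lay between 8.98 and 9.38 in KO lung and between 8.99 and 9.69 in WT lung, and the airs overlapped in both.

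Atf3, a repressor induced by stress signals, was 6.38, 5.96 and 5.61 in KO hypoxia, against 7.70, 7.17 and 7.25 in KO normoxia. It was 6.18, 6.07 and 6.72 in WT hypoxia, against 5.99, 6.42 and 6.26 in WT normoxia. The KO normoxia arrays stood above the other 9, which overlapped one another. Atf3 fell 2.62-fold in KO lung (-1.39, SE 0.23, adjusted p = 0.0022) and did not pass in WT lung (0.10, adjusted p = 0.83). The difference of these changes was -1.49 (95% interval -2.19 to -0.79, adjusted p = 0.077), which passed with a normalization offset of 50 (-1.11, adjusted p just under the threshold at 0.05 after rounding) and under none of the other 22 alternatives. Without KO normoxia 1 and 2, the arrays with most liver transcripts, the KO change was -1.27 (adjusted p = 0.077).

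Egr1 was 11.07, 11.03 and 11.00 in KO hypoxia, against 12.57, 12.04 and 12.51 in KO normoxia. Under WT hypoxia it was 11.22, 11.29 and 11.75, against 12.32, 11.67 and 12.22 in WT normoxia. The airs separated in KO lung, where the fall was 2.53-fold (-1.34, SE 0.20, adjusted p = 0.0011), and overlapped in WT lung, where WT hypoxia 3 exceeded WT normoxia 2 (-0.65, SE 0.20, adjusted p = 0.054). In WT lung Egr1 passed when WT normoxia 2 (-0.85, adjusted p = 0.019) or WT hypoxia 3 (-0.82, adjusted p = 0.031) was left out. It also passed there with a normalization offset of 50 (-0.65, adjusted p = 0.035). The KO change minus the WT change was -0.69 (95% interval -1.30 to -0.07, adjusted p = 0.33).

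Ier2, a small nuclear protein of the same early class, had the largest standard error of the 10 genes in lung (0.36). Its arrays ran between 5.90 and 7.37 in KO hypoxia and between 6.31 and 6.95 in KO normoxia, and between 6.17 and 6.97 in WT hypoxia and 5.92 and 6.98 in WT normoxia. Its changes were 0.03 (95% interval -0.76 to 0.82) in KO lung and 0.15 (-0.64 to 0.94) in WT lung, the widest intervals of the 10.

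Ccn1 was 10.15, 9.50 and 9.57 in KO hypoxia, against 11.54, 10.82 and 11.06 in KO normoxia, by its brightest probe. In WT lung it was 9.59, 9.34 and 9.65 under hypoxia, against 11.12, 10.94 and 10.62 in normoxia. The 6 hypoxia arrays lay below the 6 normoxia arrays. Ccn1 fell 2.63-fold in KO lung (-1.40, SE 0.21, adjusted p = 0.0014) and 2.58-fold in WT lung (-1.36, SE 0.21, adjusted p = 0.0014), and the 2 changes differed by -0.03 (95% interval -0.69 to 0.63). Without WT normoxia 1 and 2, the arrays with most neutrophil transcripts, the WT change was -1.09 (adjusted p = 0.10). The second probe (ILMN_2794645) gave -1.51 in KO lung and -1.37 in WT lung. The dimmest (ILMN_2710253) gave -1.72 (adjusted p over all probes 0.013) in KO lung and -1.07 (0.092) in WT lung, so that it did not pass in WT lung.

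Ccn2 stayed closer to its normoxia level. It was 12.98, 12.95 and 12.87 in KO hypoxia, against 13.17, 12.99 and 13.17 in KO normoxia, and 13.03, 13 and 12.92 in WT hypoxia, against 13.49, 13.22 and 13.06 in WT normoxia. The airs did not overlap within a genotype, but the changes of -0.17 (adjusted p = 0.47) and -0.27 (adjusted p = 0.18) did not pass.

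Dusp1 was 12.76, 12.98 and 13.10 in KO hypoxia, against 13.77, 13.85 and 13.92 in KO normoxia. It was 13.02, 13.20 and 13.45 in WT hypoxia, against 13.95, 13.52 and 13.72 in WT normoxia. All hypoxia arrays lay below all normoxia arrays, by 1.87-fold in KO lung (-0.90, SE 0.15, adjusted p = 0.0023) and 1.42-fold in WT lung (-0.51, SE 0.15, adjusted p = 0.043). The WT call was lost without WT normoxia 1 (-0.40, adjusted p = 0.16), WT normoxia 3 (-0.52, adjusted p = 0.067), WT hypoxia 1 (-0.41, adjusted p = 0.16) or WT hypoxia 2 (-0.50, adjusted p = 0.11). In all it was lost under 13 of 18 alternatives, with log2 changes between -0.62 and -0.39 over the 18. The KO change without KO normoxia 1 and 2 together was -0.98 (adjusted p = 0.052). The KO change minus the WT change was -0.39 (95% interval -0.85 to 0.06, adjusted p = 0.48).

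Other cell and tissue markers moved in the same comparisons. In KO lung 12 of 13 liver genes fell under hypoxia (summed linear signal 23500 to 32800 in KO hypoxia, against 54300 to 215000 in KO normoxia). With the liver list as a covariate 1 of the 10 genes passed there, Fosb, and 196 of all genes did, against 1104 without it; the log2 change of Fos was then -0.55 (adjusted p = 0.60), of Ccn1 -0.95 (0.24), of Atf3 -1.14 (0.22), of Egr1 -1.24 (0.12) and of Dusp1 -0.91 (0.12). Without KO normoxia 1 and 2 together, 3 passed. In WT lung 5 of 9 neutrophil genes fell and 1 rose (15000 to 19300 in WT hypoxia, against 10800 to 81700 in WT normoxia). With the neutrophil list as a covariate 3 of the 10 genes passed, with Fos at -0.62 (adjusted p = 0.19) and Dusp1 at -0.43 (adjusted p = 0.25), and without WT normoxia 1 and 2 together 2 did, Fosb and Jun. Fibroblast and mesenchymal genes rose in 5 of 10 cases in WT lung (99000 to 106000 in WT hypoxia, against 47900 to 55500 in WT normoxia) and in 4 of 10 in KO lung (72500 to 86900 in KO hypoxia, against 44000 to 48000 in KO normoxia), and their part in the falls was not tested. The 11 endothelial genes summed to 59800 to 62100 in KO hypoxia, against 64400 to 71600 in KO normoxia. In WT lung they summed to 52000 to 62700 under hypoxia, against 76000 to 81500 in normoxia. Of these genes 2 fell and 1 rose in KO lung, and 4 fell and 1 rose in WT lung. The gene that rose was Emcn, by 0.72 in KO lung (adjusted p = 0.0016) and 1.26 in WT lung (adjusted p = 2e-05). The part of the endothelial genes was likewise not tested. Monocyte and macrophage genes rose in 3 of 7 cases in KO lung (6070 to 6800 in KO hypoxia, against 4590 to 5000 in KO normoxia) and in 5 of 7 in WT lung (7890 to 9410 in WT hypoxia, against 5270 to 5470 in WT normoxia), with the same limit. Of 7 cardiac and skeletal muscle genes 0 passed in either genotype, with median log2 changes of -1.08 in KO lung and -1.06 in WT lung (1230 to 11000 in KO hypoxia, against 9490 to 10100 in KO normoxia, and 4810 to 12600 in WT hypoxia, against 13300 to 18100 in WT normoxia). With that list as a covariate Fos in KO lung (-0.98, adjusted p = 0.072) and Dusp1 in WT lung (-0.39, adjusted p = 0.14) no longer passed. Club and ciliated genes fell in 3 of 7 cases in KO lung (78200 to 91700 in KO hypoxia, against 99000 to 102000 in KO normoxia). In WT lung 1 of these 7 fell and 1 rose (86900 to 90500 in WT hypoxia, against 94400 to 105000 in WT normoxia). The part of the club and ciliated genes was not tested.

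Averaged over genotypes, with 6 hypoxia arrays against 6 normoxia arrays, 7 of 10 genes fell and 0 rose, while 17.5% of all genes passed and 7.37% fell. Egr1 (-1, SE 0.14, adjusted p = 0.00039) and Atf3 (-0.64, SE 0.16, adjusted p = 0.016) joined the 5 that fell in WT lung. In Fosb, Jun, Ccn1 and Dusp1 no hypoxia array reached a normoxia array of either genotype, which 2.29% of all tested genes showed. The count lay between 5 and 8 under the 23 alternatives. Junb, Ier2 and Ccn2 did not pass in the averaged comparison.

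**Figure D2:**
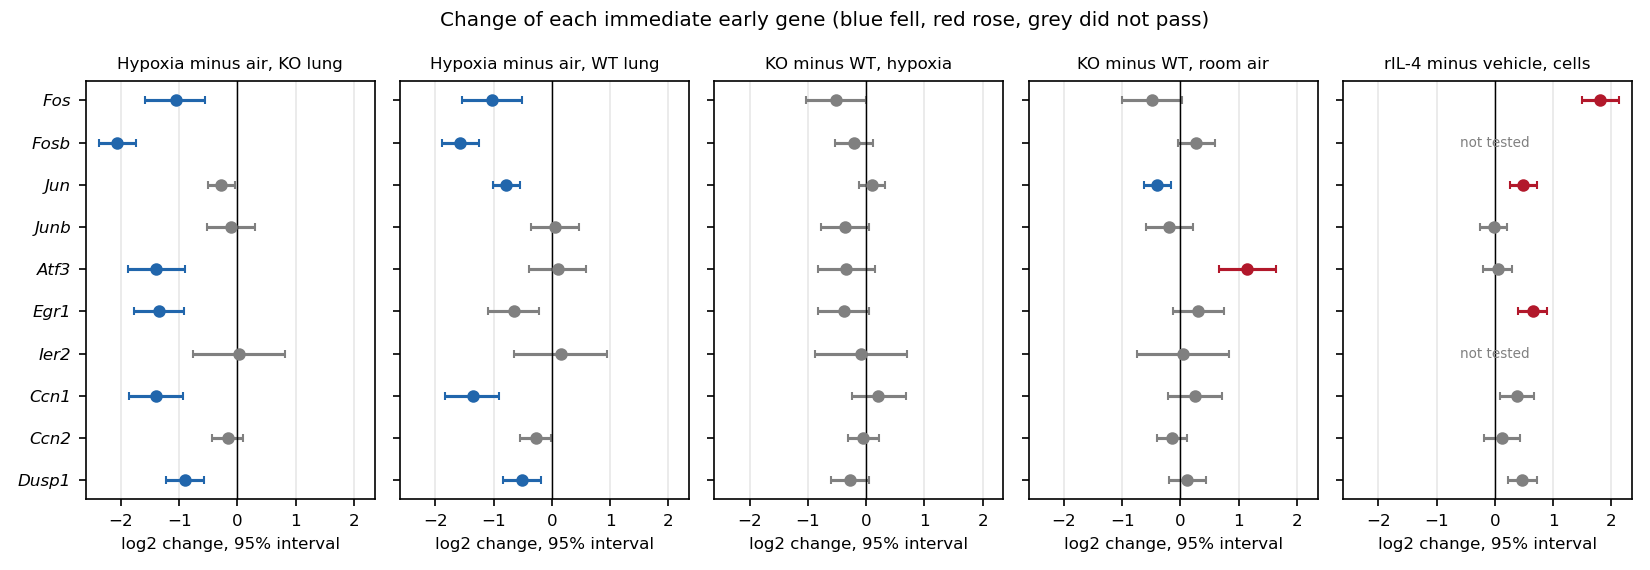
Log2 change of each gene with its 95% interval in 5 comparisons, with blue for a fall and red for a rise at an adjusted p under 0.05 and grey for neither. Points of the 2 hypoxia panels lie mostly left of 0, those of the 2 genotype panels lie on either side of it, and Fos, Jun and Egr1 lie right of it with rIL-4.

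The genotype comparisons asked whether the loss of IL-4 changed these genes in either air. In room air, 1 rose and 1 fell of 10, while 7.05% of all genes passed, 4.09% upward and 2.96% downward. The KO arrays stood above the WT arrays for 1 gene and below them for 1, as they did for 12.4% and 12.1% of all genes. Atf3 rose 2.22-fold in KO normoxia (1.15, SE 0.23, adjusted p = 0.011; the array values are those above), with no overlap. Jun fell 1.32-fold in KO normoxia (-0.40, SE 0.11, adjusted p = 0.04), also with no overlap, and lost its call without any 1 of the 6 arrays but WT normoxia 3 (-0.43 to -0.37, adjusted p between 0.072 and 0.12). In the same comparison 10 of 13 liver genes rose (54300 to 215000 in KO normoxia, against 16800 to 26700 in WT normoxia). So did 5 of 6 B cell genes (3510 to 4790, against 1460 to 2290) and 3 of 4 T cell genes (1700 to 2080, against 1020 to 1470), whose part in the Atf3 and Jun calls was not tested. With the liver list as a covariate, without KO normoxia 1 and 2, with the neutrophil list as a covariate, or without WT normoxia 1 and 2, 0 of the 10 genes passed; the change of Atf3 was then 0.83 (adjusted p = 0.46), 1.03 (0.23), 1.05 (0.063) and 1.11 (0.20).

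Under hypoxia, 0 of 10 genes passed between KO and WT, while 0.0557% of all genes did (7 genes in limma, with 945 at an unadjusted p under 0.05). Fos, Egr1 and Junb were lower on all 3 KO hypoxia arrays than on all 3 WT hypoxia arrays, a separation in that direction that 6.33% of all genes showed. Their log2 changes were -0.52 (adjusted p = 0.65), -0.38 (adjusted p = 0.75) and -0.36 (adjusted p = 0.75). Averaged over the 2 airs, 0 of 10 passed, against 4.01% of all genes. Fos was nearest at -0.50 (95% interval -0.87 to -0.14, adjusted p = 0.12), and without WT normoxia 3 it passed (-0.61, adjusted p = 0.048), as did Junb (-0.39, adjusted p = 0.046).

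The test of whether hypoxia acted differently in KO and WT lung called 0 of the 10 genes, against 0.0159% of all genes (2 genes in limma, with 1564 at an unadjusted p under 0.05). The difference was negative for 8 of the 10 genes, with a median of -0.14 against 0.03 for all genes. The estimated KO minus WT change had opposite signs in room air and under hypoxia for 6 of the 10 genes: Atf3 (1.15 and -0.34), Egr1 (0.30 and -0.38), Fosb (0.27 and -0.21), Dusp1 (0.12 and -0.28), Ier2 (0.04 and -0.08) and Jun (-0.40 and 0.10). Of these 12 estimates 2 passed, those of Atf3 and Jun in room air. Among the 10 genes, every KO array lay on 1 side of the WT mean in room air and on the other under hypoxia only for Fosb, Jun and Dusp1. The share of all tested genes with opposite signs was not counted, so the 6 of 10 is not read as a trait of this set. The hypoxia comparisons in the 2 genotypes contrast different arrays, but both rest on the same normalization and the same estimate of spread over all lung arrays. They are thus not independent tests. Each also shares arrays with the genotype comparisons and with this difference.

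The cell comparison asked what 24 h of rIL-4 did to these genes. Of the 8 tested, 3 rose (Fos, Egr1 and Jun) and 0 fell, while 1.67% of all 9017 genes passed and 1.13% rose. The median log2 change was 0.43, against -0.01 for all genes, and all 3 rIL-4 arrays lay above all 3 vehicle arrays for 4 genes (Fos, Jun, Egr1 and Dusp1), as they did for 7.6% of all genes.

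**Figure D3:**
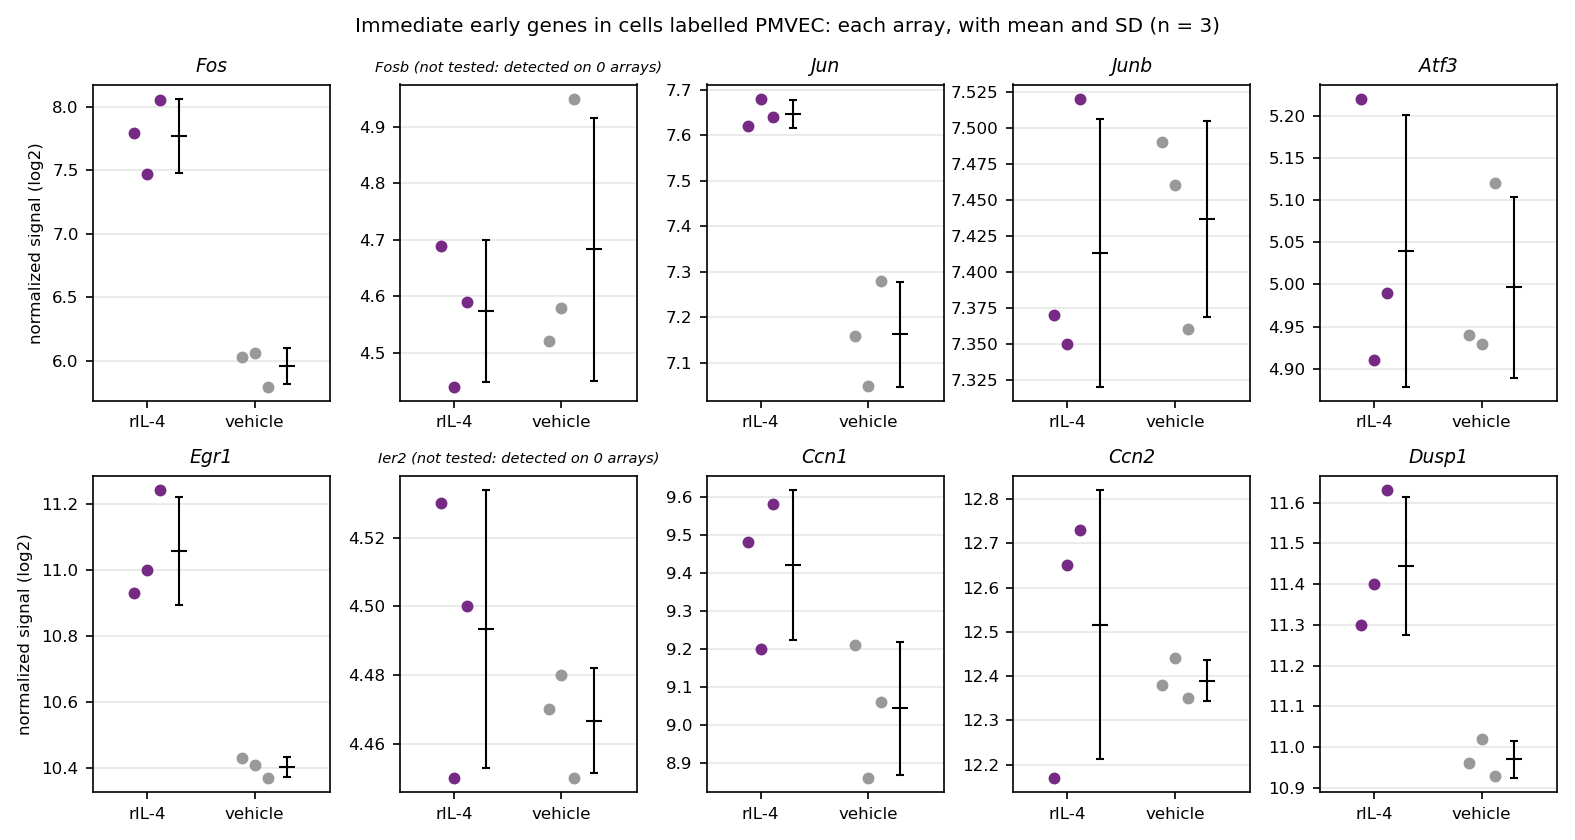
Normalized log2 signal of each gene on the 6 cell arrays (points), with the mean and SD of 3 arrays beside each group and a separate axis for each gene. Fos, Jun, Egr1 and Dusp1 separate rIL-4 from vehicle, and Fosb and Ier2, detected on 0 of 6 arrays, were not tested.

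Fos was 7.79, 7.47 and 8.05 with rIL-4, against 6.03, 6.06 and 5.80 with vehicle. It rose 3.5-fold (1.81, SE 0.15, adjusted p = 4.5e-05) and ranked 11 among 9017 genes by p. Raw signals were 259, 222 and 298 with rIL-4, against 96.9, 96.7 and 84.5 with vehicle, so that the probe was dim but detected on all 6 arrays. The call was kept under all 12 alternatives, with log2 changes between 1.39 and 1.96.

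Egr1 was 10.93, 11.00 and 11.24 with rIL-4, against 10.43, 10.41 and 10.37 with vehicle, and rose 1.57-fold (0.65, SE 0.11, adjusted p = 0.013). Without vehicle 1, 2 or 3 or rIL-4 3 its log2 change was 0.67, 0.65, 0.63 and 0.56, with adjusted p of 0.057, 0.063, 0.072 and 0.063. Jun was 7.62, 7.68 and 7.64 with rIL-4, against 7.16, 7.05 and 7.28 with vehicle, and rose 1.4-fold (0.49, SE 0.11, adjusted p = 0.042). Its call was lost on leaving out any 1 of the 6 arrays (0.43 to 0.55, adjusted p between 0.063 and 0.20). In both genes the conditions did not overlap.

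Dusp1 was 11.30, 11.40 and 11.63 with rIL-4, against 10.96, 11.02 and 10.93 with vehicle, without overlap (0.47, SE 0.11, adjusted p = 0.071). It passed without rIL-4 1 (0.55, adjusted p = 0.048), with a normalization offset of 50 (0.47, adjusted p = 0.017), and with median scaling (0.60, adjusted p = 0.018). It also passed with the log2 of the raw signal and with the deposited log2 table (0.65, adjusted p = 0.0023 in each). Ccn1 was 9.48, 9.20 and 9.58 with rIL-4, against 9.21, 8.86 and 9.06 with vehicle, with overlap (0.38, SE 0.13, adjusted p = 0.25). Ccn1 passed with the log2 of the raw signal (0.53, adjusted p = 0.023) and with the deposited log2 table (0.52, adjusted p = 0.024). Its dimmest probe (ILMN_2710253) gave 0.75 (SE 0.13, adjusted p over all probes 0.019) and its second (ILMN_2794645) 0.39 (0.39), so the probes disagreed on the call and not on direction.

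Junb (-0.02, 95% interval -0.25 to 0.21), Atf3 (0.05, -0.21 to 0.30) and Ccn2 (0.13, -0.19 to 0.44) did not pass, and Atf3 was detected on 2 of 3 arrays in each condition. Fosb had raw signals of 57.2, 44.6 and 47.2 with rIL-4, against 51.0, 52.1 and 60.3 with vehicle, none above background. Fibroblast and mesenchymal genes summed to 6820 to 7370 with rIL-4, against 8000 to 8580 with vehicle (0 of 7 passed), and smooth muscle genes to 43200 to 44900, against 44400 to 47300 (0 of 5 passed).

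Set beside each other, the directions in lung and cells were opposite for the genes called in both. The arrays of the 2 experiments are separate. Fos rose with rIL-4 and fell with hypoxia in both genotypes, Egr1 rose with rIL-4 and fell with hypoxia in KO lung, and Jun rose with rIL-4 and fell with hypoxia in WT lung. Among the 92 genes that rose with rIL-4 and were also tested in lung, 9.78% fell and 13% rose with hypoxia in KO lung, 9.78% fell and 19.6% rose in WT lung, and 21.7% fell and 22.8% rose in the average over genotypes. Of the 3 immediate early genes among them, 2 fell in KO lung, 2 in WT lung and 3 in the average. Between genotypes in room air, Jun alone of these 3 was called, lower in KO lung, and under hypoxia none was; 9.78% of the 92 genes fell and 8.7% rose in KO normoxia. Fos, with the largest rise under rIL-4, had log2 changes between KO and WT of -0.48 in room air (adjusted p = 0.25) and -0.52 under hypoxia (adjusted p = 0.65).

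A wider set of 73 early response genes was taken from lists of AP-1 and related factors, Egr, Nr4a and Klf factors, other early response genes, dual-specificity phosphatases and the CCN family, of which 58 were tested in lung. Under hypoxia 3 fell and 1 rose in KO lung, 7 fell and 5 rose in WT lung, and 11 fell and 6 rose in the average over genotypes, with median log2 changes of -0.12, -0.13 and -0.11. In KO lung 6.9% of the set passed and 5.17% fell, near the 8.78% and 3.82% of all tested genes. In WT lung 20.7% passed and 12.1% fell, against 11.8% and 4.32% of all genes, and in the average 29.3% passed and 19% fell, against 17.5% and 7.37%. In the cells 1 of 49 rose and 0 fell, or 2.04% against 1.67% of all genes.

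**Figure D4:**
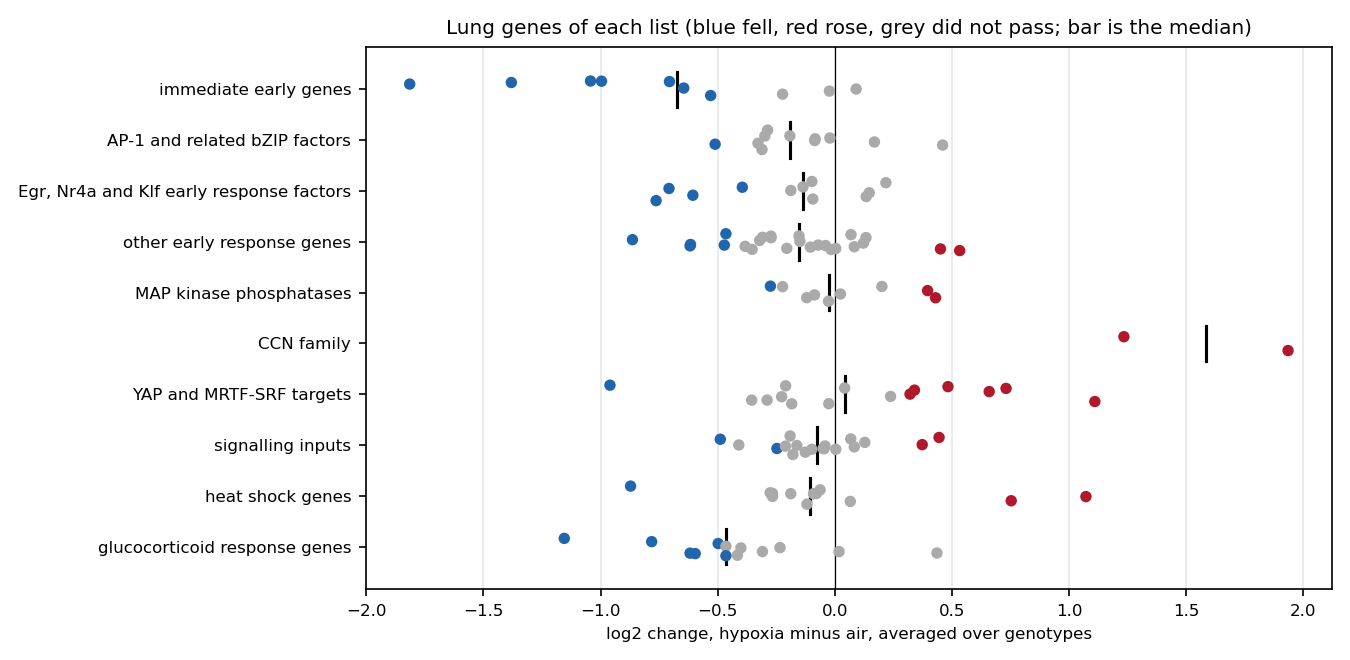
Log2 change under hypoxia, averaged over genotypes, of each tested lung gene in 10 lists (points), with a bar at each list's median; blue fell, red rose and grey did not pass. The immediate early genes lie furthest left as a group, with a median of -0.68, and the CCN list holds only Ccn4 and Ccn5, both right of 0.

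Among the relatives of Egr1, Egr2 (7.70 ± 0.10 in KO hypoxia, against 8.43 ± 0.37 in KO normoxia, and 7.82 ± 0.14 in WT hypoxia, against 8.61 ± 0.29 in WT normoxia; SD, n = 3) fell in both genotypes, by -0.74 (adjusted p = 0.028) and -0.79 (adjusted p = 0.017). Hes1, a Notch-responsive repressor, also fell in both (-0.64, adjusted p = 0.011, and -0.78, adjusted p = 0.0029). Nr4a2, an orphan nuclear receptor, fell in KO lung (-0.85, adjusted p = 0.0069). Klf2, a factor of flow-exposed endothelium, rose in KO normoxia relative to WT normoxia (0.67, adjusted p = 0.0081), and Klf4 rose with rIL-4 in the cells (8.60 ± 0.13, against 8.12 ± 0.05 with vehicle; 0.49, adjusted p = 0.048).

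Of 11 other AP-1 and related factors tested, 0 passed in KO lung and 1 in WT lung, Maff, a small Maf protein, which fell (-0.81, adjusted p = 0.021). Maff was 6.45 ± 0.06 in KO normoxia, against 7.59 ± 0.50 in WT normoxia, a fall of -1.14 on the log2 scale (adjusted p = 0.006). Of 25 other early response genes, 0 passed in KO lung, and in WT lung 4 fell and 1 rose. Nfkbia, the inhibitor of NF-kappaB, had a log2 change of -1 (adjusted p = 0.013), with arrays at 10.57, 10.81 and 10.55 in WT hypoxia, against 12.14, 11.78 and 11.00 in WT normoxia. Errfi1, a feedback inhibitor of the EGF receptor, fell by 0.82 (adjusted p = 0.0013), and Ier5l rose (0.70, adjusted p = 0.012).

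Among 9 other dual-specificity phosphatases, relatives of Dusp1, 0 passed in KO lung and 2 in WT lung, where Dusp2 and Dusp8 rose (0.66 each, adjusted p = 0.013 each). Averaged over genotypes these 2 rose and Dusp6, a phosphatase of ERK, fell (-0.28, adjusted p = 0.048). Of the CCN relatives, Ccn4 and Ccn5 were tested. Ccn4, a Wnt-induced matricellular protein, was 9.33, 9.30 and 9.07 in KO hypoxia, against 7.30, 7.63 and 7.67 in KO normoxia, and 9.23, 9.07 and 8.83 in WT hypoxia, against 6.42, 7.02 and 7.20 in WT normoxia. It rose 3.26-fold in KO lung (adjusted p = 0.00014) and 4.48-fold in WT lung (adjusted p = 2e-05). Ccn5 rose in WT lung (1.68, adjusted p = 0.00049) and did not pass in KO lung. Of 15 targets of YAP or of MRTF and SRF, 3 rose and 1 fell in KO lung and 4 rose and 1 fell in WT lung. Tgfb2 rose in WT lung (0.97, adjusted p = 0.00087) and did not pass in KO lung. It was higher in KO normoxia than in WT normoxia (0.65, adjusted p = 0.017). In the cells it fell with rIL-4 (-0.61, adjusted p = 0.019), the only 1 of 13 such targets tested there to pass. Tagln (1.33 in KO lung and 0.89 in WT lung) and Acta2 (0.70 and 0.76), both contractile genes, rose. Thbs1, the matricellular thrombospondin, fell (-0.99, adjusted p = 0.037, and -0.93, adjusted p = 0.04). Smooth muscle genes as a marker list share Tagln, Acta2 and Actg2 with these targets. The smooth muscle list rose in 4 of 6 cases in KO lung (20100 to 21500 in KO hypoxia, against 11900 to 14600 in KO normoxia). In WT lung 3 of 6 rose (25100 to 26200 in WT hypoxia, against 14800 to 18000 in WT normoxia).

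Of 18 kinases and factors upstream of these genes, Tead2 (0.65, adjusted p = 0.0051) and Tead4 (0.59, adjusted p = 0.02) rose in KO lung, and Creb1 (-0.57, adjusted p = 0.046) and the p38 kinase kinase Map2k3 (-0.35, adjusted p = 0.047) fell in WT lung; 0 passed between genotypes or with rIL-4. Among 12 heat shock genes 0 passed in KO lung, and in WT lung Hspa1a (2.52, adjusted p = 0.0026) and Dnajb1 (1.31, adjusted p = 0.00018) rose and Hspb1 fell (-1.65, adjusted p = 9.6e-05). In room air 7 of these 12 were lower in KO lung, among them Hspb1 at 11.13 ± 0.15 in KO normoxia, against 13.29 ± 0.35 in WT normoxia. Among 13 glucocorticoid-responsive genes 0 passed in KO lung and 8 fell in WT lung, and 7 fell in KO normoxia relative to WT normoxia. Fkbp5, an HSP90 co-chaperone induced by glucocorticoids, had 11.20, 9.65 and 8.96 on the WT normoxia arrays and 7.14, 7.35 and 7.73 in KO normoxia. The mean standardized level of the neutrophil genes was 1.99, 0.96 and -0.54 on these WT arrays and 0.14, -0.16 and -0.50 on the KO arrays. The order was thus the same in WT normoxia and reversed in KO normoxia, and a link was not tested. The difference of the hypoxia changes between genotypes called 0 genes of these 2 lists.

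Across the 12 lung arrays, the mean standardized level of the 10 genes was -0.84, -0.75 and -0.89 in KO hypoxia, against 0.93, 0.36 and 0.55 in KO normoxia. It was -0.44, -0.56 and -0.25 in WT hypoxia, against 0.95, 0.69 and 0.26 in WT normoxia. The 6 hypoxia arrays were below the 6 normoxia arrays, and the KO hypoxia arrays were the lowest. WT normoxia 1 was highest of its group for 7 of the 10 genes, KO normoxia 1 for 7, and WT hypoxia 3 for 6, and rIL-4 3 was highest of its group for 6 of 8 in the cells. The genes outside the set whose levels were most like this mean were Vnn3, a vanin of the pantetheinase family (Pearson r = 0.975), Igfbp3, which binds insulin-like growth factors (0.969), Kyat1 (0.958), the cytochrome Cyp2d22 (0.958), the actin-severing protein Gsn (0.947) and the glutathione peroxidase Gpx2 (0.946). Of 12561 genes, 38 had an r over 0.9. These values describe 12 arrays that share the 4 groups, so genes that fall with hypoxia have a high r. Igfbp3 was 6.26 ± 0.15 in KO hypoxia, against 8.82 ± 0.22 in KO normoxia, and 6.90 ± 0.16 in WT hypoxia, against 9.19 ± 0.20 in WT normoxia (SD, n = 3 each). Gsn fell with hypoxia in KO lung (-1.46, adjusted p = 0.0019) and in WT lung (-1.11, adjusted p = 0.0091), which its choice by r favours. In the cells Gsn rose with rIL-4 (0.82, adjusted p = 0.012), from a dim 4.78, 4.80 and 4.67 with vehicle. Undetected Fosb was 4.52, 4.58 and 4.95 on those arrays. Igfbp3 (0.19), Kyat1 (0.04) and Cyp2d22 (-0.29) did not pass in the cells, and Vnn3 and Gpx2 were not tested there.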

How the data were processed

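Per the labels, lung and cell RNA was amplified and biotin-labelled with a commercial kit, with 1 array for each sample; the submitters' processing notes list BeadStudio and give no version. The authors deposited non-normalized signal intensities with a detection p-value per probe, and a log2 table with a median of 8 on every array. Once the log2 of the deposited signals was shifted to that median on each array, the log2 table differed from it by over 0.02 for 0 of 25697 probes in lung. In the cells it differed for 7582 (29.5%), 2 Ccn1 probes among them, so the log2 table served only as an alternative. Chip and scan are not stated in the labels, and array number limits the precision.

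Intensities were normalized with neqc (limma 3.58.1, R 4.3.3; background inferred from detection p-values, offset 16, quantile, log2) separately for the 12 lung and 6 cell arrays, so levels were not tested across them. Offsets compress changes of dim probes. The filter kept probes whose detection p fell under 0.05 in 3 or more samples (17112 in lung, 11947 in cells), and the brightest probe stood for a gene. In the platform annotation 23978 probes had 1 symbol and 1719 none. Models (lmFit, eBayes) over the 4 lung groups and the 2 cell groups gave two-sided p-values with Benjamini-Hochberg adjustment over all genes of each of 8 comparisons. Arrays of a group correlated at 0.988 to 0.997 and none were identical. The procedure was tested on simulated data.

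The members, lists and tests were chosen with earlier results of these data known. Named genes were the members and, per list and comparison, up to 3 passing, non-overlapping genes of largest change. The 6 genes most like the members' mean and markers beside a result were also named. Thbs1, which overlapped in WT lung, is given for comparison with KO lung. Dusp6, which overlapped in the comparison averaged over genotypes, is given beside Dusp2 and Dusp8. Genes that stand in 2 lists include Errfi1, Sgk1, Per1, Tagln, Acta2 and Actg2. The TGACG motif, the neutrophil and muscle covariates, and leaving out WT normoxia 1 and 2 were added after the data were seen. Alternatives changed the offset, scaling, source table, filter, samples and covariates. Promoters of 7 members were matched by symbol in a RefSeq table (GRCm38.p6); Egr1, Ier2 and Ccn2 were not. The files name no genome build.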

Additional observations from a re-analysis of the deposited data

How the results depend on the processing

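Of 1506 values of single genes under alternatives, 1428 kept their side of the threshold, 64 lost and 14 gained a call, and 0 called values changed sign. The 1428 include values called in neither fit, whatever their sign. Most values were not called in the reported fit, so the 64 is a larger share of the called values than of the 1506. Counts of members passing moved as follows, and the causes were not tested. Fits that leave out arrays also rest on fewer arrays. For hypoxia in KO lung (6), 1 passed with the liver list as covariate, 3 without KO normoxia 1 and 2 together, and 5 to 6 on leaving out each array. For hypoxia in WT lung (5), 3 passed with the neutrophil list as covariate, 2 without WT normoxia 1 and 2 together, and 3 to 6 on leaving out each array. For the difference of these (0), 1 passed with an offset of 50. For KO against WT in room air (2), 1 passed with median scaling, with the log2 of the raw signal, with the deposited log2 table, with the 2 groups alone and with the cardiac and skeletal muscle list as covariate, 0 with the liver or neutrophil list as covariate or without KO normoxia 1 and 2 or WT normoxia 1 and 2, and 1 to 2 on leaving out each array. Averaged over the airs (0), 0 to 2 passed on leaving out each array. For rIL-4 (3), 5 passed with the log2 of the raw signal and with the deposited table, 1 without the detection filter, and 1 to 3 on leaving out each array.

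All-gene counts ranged from 196 to 1231 in KO lung (1104), 350 to 1805 in WT lung (1483), 0 to 198 for their difference (2), 7 to 1235 in room air (886), 2 to 27 under hypoxia (7), 715 to 2488 for hypoxia averaged over genotypes (2203), 4 to 783 for genotype averaged over the airs (504) and 73 to 307 for rIL-4 (151). No paired analysis was possible because the labels number all arrays in running series, and no number links arrays of different groups. With 3 arrays per group, and dim signals for Atf3, Ier2 and Fosb, a change that did not pass is not shown to be absent.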
